A study of Mus musculus with 6 samples.

Results

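The actins of satellite cells (SCs), the stem cells of skeletal muscle, were compared between NF-YAcKO and NF-YAfl/fl mice. The members were the genes of conventional actins, Acta1, Actc1, Acta2, Actg2, Actb and Actg1, chosen by name as 6 of the 35976 genes quantified. In NF-YAcKO cultures the actins of striated muscle were almost lost. Acta1, the skeletal muscle alpha-actin, had a mean level of 19.1 TPM (read counts per transcript length, brought to an equal total for all libraries) against 2124.8 in NF-YAfl/fl, and Actc1, the cardiac alpha-actin, 4.43 against 1212. Acta2, the smooth muscle alpha-actin, fell from 1139.49 to 449 TPM. The cytoplasmic actins Actb and Actg1 were higher by 1.56-fold and 1.6-fold and made up 93.6% of the actin transcripts in NF-YAcKO, against 49.0% in NF-YAfl/fl.

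The series holds 6 RNA-seq libraries of cultured SCs, 3 for each genotype. In NF-YAcKO mice the inducible recombinase Pax7-CreERT2, driven from the Pax7 gene of SCs, deletes the floxed part of NF-YA once tamoxifen is given. NF-YA is the part of the trimeric factor NF-Y that recognises CCAAT. NF-YAfl/fl controls carried the same floxed alleles and received tamoxifen as well, at 0.1 mg per g of body weight in 5 daily injections. By the Methods, muscles were taken 7 days after the last injection, cells carrying CD31, CD45, CD11b or Sca1 were depleted with magnetic beads, and the remaining SCs were cultured in growth medium for 4 days. Mice were 5 to 7 weeks old by the labels, while the Methods of the study name male mice of an older range. The libraries are those of cells that remained in culture after recombination, not of a cloned line, and the study found the loss of NF-YA in SCs of fresh fibres to be incomplete, so that the NF-YAcKO libraries may hold cells that escaped deletion.

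Actin is the protein of the thin filament and of the cytoskeleton. Mammals encode it in a small family whose proteins differ at few positions, mostly at the start of the chain. Actb and Actg1 are made in nearly all cells and serve in motility, adhesion and division. Acta1 and Actc1 form the thin filaments of the sarcomere. In mouse muscle development Actc1 precedes Acta1, which is the main actin of adult fibres. Acta2 and Actg2 belong to vascular and visceral smooth muscle, but Acta2 is also known from cultured myoblasts and from myofibroblasts. Monomeric actin holds the cofactors of serum response factor (SRF) in the cytoplasm, and SRF binds the CArG box found in many actin promoters.

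The first 36 coding bases are shown because the members differ most at this end. They were read from the GENCODE vM21 transcripts on GRCm38 (mm10), where all 6 genes lie on the minus strand, each on a chromosome of its own, and each stretch lies within 1 coding exon. Capitals mark the start codon.
Acta1 (chr8:123893662-123893697, minus strand): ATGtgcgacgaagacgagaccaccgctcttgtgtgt
Actc1 (chr2:114051996-114052031, minus strand): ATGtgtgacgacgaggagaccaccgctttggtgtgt
Acta2 (chr19:34252518-34252553, minus strand): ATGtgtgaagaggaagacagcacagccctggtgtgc
Actg2 (chr6:83527406-83527441, minus strand): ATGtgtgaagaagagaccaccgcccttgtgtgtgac
Actb (chr5:142905651-142905686, minus strand): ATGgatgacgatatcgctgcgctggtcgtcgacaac
Actg1 (chr11:120348056-120348091, minus strand): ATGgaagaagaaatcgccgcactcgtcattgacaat
The second codon separates the families. It was tgc or tgt in the 4 muscle actins and gat or gaa in the cytoplasmic actins. Over the last 1110 coding bases, aligned without gaps, identity between members was lowest for Acta2 and Actg1, at 82.0%, and highest for Actb and Actg1, at 88.7%. Acta1 and Actc1 were identical at 86.3%. Such likeness matters for counting, since the authors' RSEM estimates split reads that fit several transcripts. Of all words of 75 bases in the main transcript, the length of a sequenced read, none occurred in another gene's transcript for Actc1, Acta2 and Actg2, by exact match on the sense strand. The share found only in the gene itself was 99.6% for Acta1 and 97.4% for Actb. For Actg1 the share was only 45.5%, and the words it shared were found in no other actin of the 6 but mostly in Gm12715 and Gm8399. By such single words Actg1 was the member most open to divided reads. Whether Gm12715 and Gm8399 were among the transcripts used by the authors was not checked, and the pairing of reads was left out. The estimated counts of Actc1 and Actg2 were whole in all 6 libraries, as if no read had been divided. Those of Acta2 were whole only in NF-YAfl/fl replicate 3, as if some of its reads had been divided (25289.11 counts in NF-YAcKO replicate 1). For Acta2 the words came from a transcript of 2035 nt, while the authors quantified forms of 2572 and 1177 nt.

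Libraries held 26936230 to 41118984 expected counts, so that 3 counts were worth 0.073 to 0.111 CPM, the counts relative to library size. All 6 actins passed the filter of more than 10 counts in at least 2 libraries, with 17348 genes in all. The transcript entry for the deleted Nfya allele received 22.3% to 34.2% of the Nfya counts in NF-YAcKO and 0 in NF-YAfl/fl. The other Nfya entries thus kept 65.8% to 77.7% of the Nfya counts in NF-YAcKO, at 17.7 to 21.0 CPM against 23.4 to 36.9 CPM in NF-YAfl/fl, and the summed Nfya level overlapped between the genotypes (27.0 to 28.5 and 23.4 to 36.9 CPM). Xist was at 45.5 to 54.5 TPM in NF-YAcKO and at most 0.03 in NF-YAfl/fl, and the Y-linked Ddx3y at most 0.02 against 16.8 to 25.9, so that differences by sex and by genotype cannot be told apart. Markers of macrophages were higher in NF-YAcKO for 9 of 9 genes, with a summed level of 139 to 267 TPM against 3.64 to 13.7. They include genes of 2 antigens used in the depletion. Ptprc, the gene of CD45, was at 0.25 to 0.71 TPM in NF-YAcKO and at most 0.04 TPM in NF-YAfl/fl, and Itgam, the gene of CD11b, at 1.51 to 2.84 TPM and 0.22 to 0.36 TPM. Of the other marker lists, 4 of 6 Schwann cell genes, 1 of 6 endothelial genes and 1 of 9 fibroblast genes were higher in NF-YAcKO. All marker counts are of genes called by the rule given below, which called 4.65% of all tested genes higher and 7.67% lower. The SC and myoblast markers were detected in all libraries, summing to 785 to 887 TPM in NF-YAcKO and 1291.98 to 1681.62 TPM in NF-YAfl/fl. Of these, 2 of 8 (Cdh15 and Des) were called lower, and Des alone was at 120 against 541 TPM. The 6 others were not called and went both ways. Log2 fold changes of Pax7 (0.94, edgeR FDR = 0.00624), Vcam1 (0.86) and Myf5 (0.80) were above 0. Those of Itga7 (-1.25), Chrna1 (-0.43) and Myod1 (-0.08) were below 0.

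All tested genes entered 1 fit with edgeR's quasi-likelihood test. A gene was called where its Benjamini-Hochberg FDR was under 0.01 and its log2 fold change was over 1 in size. Of the 6 actins, 3 were called lower (Actc1, Acta1 and Acta2), where 7.67% of all tested genes were. None was called higher, a call made for 4.65% of all genes. At an unadjusted p under 0.05 with edgeR, 2 of 6 were higher (Actb and Actg1), and DESeq2 and limma also called 0 of them. The share of all tested genes at that unadjusted p was not determined, here or for the lists below. It is at least the 10.3% on the higher side and 9.97% on the lower side that had an FDR under 0.01. Counts at that p are therefore not a result about the members. CPM of the genotypes did not overlap for 5 of 6 actins, all but Actg2, which was true of 55.3% of all tested genes. The median log2 fold change of all tested genes was -0.02.

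**Figure D1:**
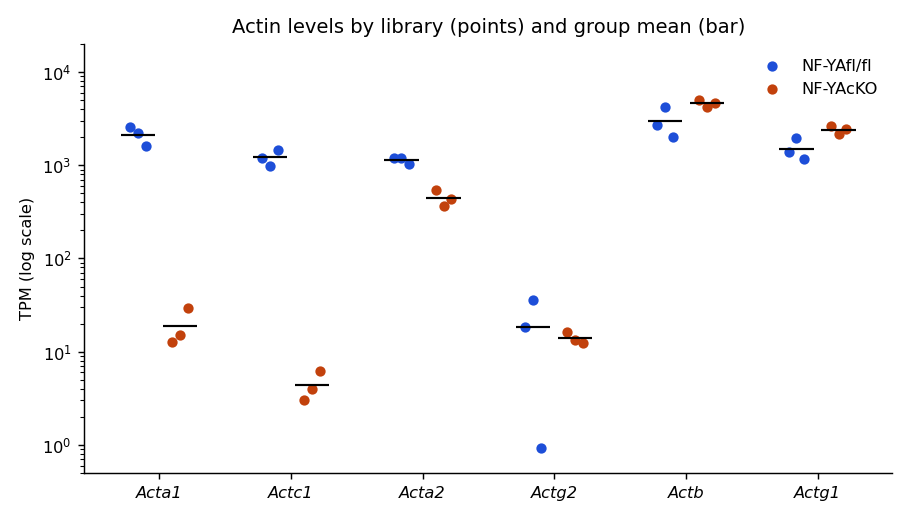
Level of each actin in TPM (log axis) in the 3 NF-YAfl/fl (blue) and the 3 NF-YAcKO libraries (orange), with the group mean as a bar. The group means of Acta1 differ by 111-fold, of Actc1 by 274-fold and of Acta2 by 2.54-fold, and the lowest point is Actg2 in NF-YAfl/fl replicate 3 (0.93 TPM).

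Acta1 and Actc1, the sarcomeric actins, showed the largest differences of the family. Acta1 was at 2568.98, 2193.45 and 1611.98 TPM in the NF-YAfl/fl libraries and at 12.6, 15.0 and 29.6 TPM in the NF-YAcKO libraries. Every NF-YAfl/fl library was far above every NF-YAcKO library, and NF-YAcKO replicate 3 was the highest of its group. The means were 2124.8 ± 482 and 19.1 ± 9.23 TPM (SD, n = 3), a ratio of 111. By edgeR's quasi-likelihood test the log2 fold change was -6.71 (SE 0.41, FDR = 0.000139). Of all genes in a library, Acta1 ranked 21 to 47 by TPM in NF-YAfl/fl and 2891 to 6069 in NF-YAcKO.

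Actc1 was at 1196.02, 990.3 and 1449.64 TPM in NF-YAfl/fl, and at 3.06, 4.01 and 6.22 TPM in NF-YAcKO. The latter rest on 109, 222 and 312 counts, well over the detection limit. Again the groups were widely apart, and NF-YAcKO replicate 3 was again the highest of its group. The means were 1212 ± 230 and 4.43 ± 1.62 TPM, a ratio of 274. The log2 fold change was -8.06 (SE 0.46, edgeR FDR = 9.99e-05), which ranked 27 from the lowest of the 17348 tested genes, with Acta1 at 86. Both sarcomeric actins kept their call under all 14 alternative analyses.

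Within NF-YAfl/fl the sarcomeric actins did not follow each other. In TPM, replicate 3 had the lowest Acta1 and the highest Actc1. In CPM it also had the highest Actc1 (2019.34), but replicate 2 had the lowest Acta1 (2102.76, against 2282.24 in replicate 3). The order of Acta1 thus depended on the scale. The log2 ratio of Acta1 to Actc1 was 0.15 in replicate 3, against 1.10 and 1.15 in replicates 1 and 2. In NF-YAcKO the ratio was 2.04, 1.91 and 2.25. It was thus higher in all 3 NF-YAcKO libraries, with a mean of 2.06 ± 0.17 against 0.80 ± 0.56. The difference of 1.26 on the log2 scale had p = 0.1 by a two-sided exact permutation test, the smallest that 3 against 3 libraries allow, and p = 0.167 after adjustment over the 5 ratios examined. Actc1 differed more between the genotypes than Acta1 in these libraries, but the design cannot reach a threshold of 0.05. Markers of the heart, where Actc1 is the main actin, were also examined. Of 8 such genes 5 were tested, of which 3 were lower (Myl4, Tnnt2 and Myh6) and 1 was higher (Myl7), calls made for 7.67% and 4.65% of all tested genes. The list summed to 56.5 to 74.5 TPM in NF-YAcKO and 1014.89 to 1694.75 TPM in NF-YAfl/fl. In NF-YAfl/fl most of this was Myl4, at 938 ± 279 TPM, and Tnnt2, at 325 ± 120 TPM. Myh6 was called from values near 0, at 0.14 to 0.24 TPM in NF-YAfl/fl and at most 0.01 TPM in NF-YAcKO. The untested Nppa and Tnni3 were at most at 0.68 and 0.39 TPM in any library. Nkx2-5, a defining gene of cardiomyocytes, was at 0 in all NF-YAfl/fl libraries, while Gata4 was at 4.41, 6.52 and 1.66 TPM there. The source of these transcripts was not tested. In bulk libraries fewer cells that express a gene and less RNA of it per cell cannot be told apart.

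Acta2 was called lower with a much smaller difference. Its level was 1203.44, 1192.99 and 1022.03 TPM in NF-YAfl/fl and 546.8, 361 and 439 TPM in NF-YAcKO. No library of one genotype came near the other. The means were 1139.49 ± 102 and 449 ± 93.1 TPM, with a log2 fold change of -1.20 (SE 0.15, edgeR FDR = 0.00155), at rank 2008 from the lowest. The call was lost at FDR = 0.0124 without NF-YAcKO replicate 2 and at FDR = 0.0107 without NF-YAcKO replicate 3, with log2 fold changes of -1.16 and -1.19. In NF-YAcKO Acta2 was the most abundant of the 4 muscle actins in each library, and in NF-YAfl/fl it stood below Acta1 in each. The log2 ratio of Acta2 to Acta1 was -0.88 ± 0.22 in NF-YAfl/fl and 4.64 ± 0.78 in NF-YAcKO (exact permutation test, p = 0.1, adjusted p = 0.167).

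Actg2, the enteric smooth muscle gamma-actin, was the least expressed member in NF-YAfl/fl and varied widely there. It was at 18.5, 35.4 and 0.93 TPM in NF-YAfl/fl replicates 1, 2 and 3, the last from 34 counts. In NF-YAcKO it was at 16.1, 13.3 and 12.4 TPM. The NF-YAcKO values lay inside the range of the NF-YAfl/fl values, and the coefficient of variation was 13.8% against 94.3%. The log2 fold change was -0.15 (SE 0.86, edgeR FDR = 0.905). Without NF-YAfl/fl replicate 3 it was -0.71 (FDR = 0.0251), and without NF-YAfl/fl replicate 2 it was 0.57 (FDR = 0.655), so that single control libraries set its sign.

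NF-YAfl/fl replicate 3 was also low in several other genes of smooth muscle, though not in all. Cnn1, which encodes calponin, was at 31.0, 40.1 and 0.58 TPM in the NF-YAfl/fl libraries, and Lmod1, which encodes the smooth muscle leiomodin, at 3.49, 5.89 and 0.39 TPM. Myh11, the smooth muscle myosin heavy chain, was at 1.10, 2.79 and 0.10 TPM. Of the 13 markers of smooth muscle and pericytes, 7 had their lowest value of all libraries in NF-YAfl/fl replicate 3. Mcam had its highest value there (23.6 TPM), and Smtn (33.6 TPM) and Abcc9 (9.06 TPM) were above every NF-YAcKO library. Low values in this library were not particular to smooth muscle. Each fibroblast marker was lowest in replicate 3 among the NF-YAfl/fl libraries, as Pdgfra (22.9, 31.1 and 3.13 TPM) and Col1a2 (332, 476 and 73.4 TPM). Of the 12 markers tested, 2 were called lower in NF-YAcKO (Des and Abcc9), as were 7.67% of all tested genes. The 13 markers summed to 197 to 255 TPM in NF-YAcKO and 552 to 849 TPM in NF-YAfl/fl, but most of this was Des, which muscle cells also express. Without Des the NF-YAfl/fl sums were 199, 275 and 92.7 TPM and the NF-YAcKO sums were 92.4 to 113 TPM. Acta2 did not share the low value of that library. Its level there was 1022.03 TPM, more than in any NF-YAcKO library, and its log2 ratio to Actg2 was 10.1, against 6.02 and 5.07 in the other NF-YAfl/fl libraries and 4.76 to 5.15 in NF-YAcKO. The part of smooth muscle cells in the levels of Acta2 and Actg2 was not tested.

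**Figure D2:**
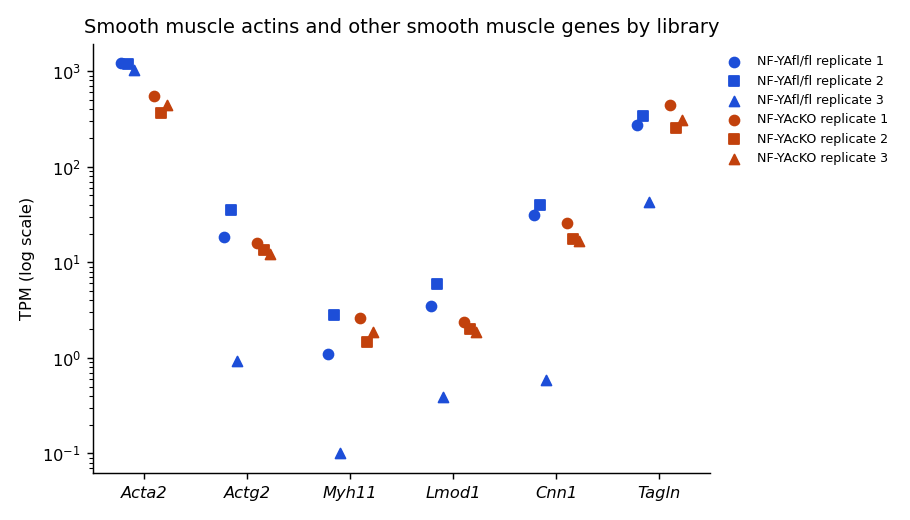
TPM (log axis) of the smooth muscle actins Acta2 and Actg2 and of 4 further smooth muscle genes in each library, with the replicate given by the symbol. NF-YAfl/fl replicate 3 (blue triangles) is the lowest point for Actg2 (0.93), Myh11 (0.10), Lmod1 (0.39), Cnn1 (0.58) and Tagln (42.5), but not for Acta2 (1022.03).

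Actb and Actg1, the cytoplasmic actins, were the most abundant members in NF-YAcKO. Actb was at 5006.11, 4216.32 and 4654.3 TPM in NF-YAcKO and at 2732.62, 4169.67 and 1990.81 TPM in NF-YAfl/fl. In TPM the groups only just did not overlap, since NF-YAfl/fl replicate 2 was just below NF-YAcKO replicate 2. In CPM the levels were 7596.46 ± 144 and 4453.97 ± 809. On that scale the groups were further apart, at 7436.39 or more in NF-YAcKO and 5338.63 or less in NF-YAfl/fl. The log2 fold change was 0.77 (SE 0.16, edgeR FDR = 0.0108), which missed both thresholds of a call.

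Actg1 was at 2608.88, 2141.53 and 2457.11 TPM in NF-YAcKO and at 1385.19, 1943.49 and 1167.21 TPM in NF-YAfl/fl. The order of the libraries was the same as for Actb within each genotype. In CPM the levels were 3915.17 ± 71.7 and 2269.35 ± 176, and the log2 fold change of 0.79 (SE 0.12, edgeR FDR = 0.00295) passed the FDR but not the fold. Such an FDR without regard to the size of the change, on the higher side, was reached by 10.3% of all tested genes, and on the lower side by 9.97%. Without any 1 of the NF-YAcKO libraries or without NF-YAfl/fl replicate 1, the FDR of Actg1 was 0.0161 to 0.0248. The spread between replicates was smaller in NF-YAcKO for both genes, with coefficients of variation of TPM of 8.55% against 37.4% for Actb and 9.92% against 26.7% for Actg1. Macrophages also express both genes, and the part of their higher markers in NF-YAcKO was not tested. Actb to Actg1 was the steadiest ratio of the family. On the log2 scale it was 0.95 ± 0.03 in NF-YAcKO and 0.95 ± 0.17 in NF-YAfl/fl (exact permutation test, p = 0.9), and leaving out single libraries put the difference between -0.09 and 0.07.

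The composition of the actin pool was then examined as the share of each gene in the summed TPM of the 6. The sum itself was 9104.79, 10525.4 and 7242.6 TPM in NF-YAfl/fl and 8193.41, 6751.52 and 7598.82 TPM in NF-YAcKO. These ranges overlapped (8957.6 ± 1646.34 and 7514.58 ± 725, exact permutation test, p = 0.3), and actins took 0.895% ± 0.164 and 0.751% ± 0.0724 of all TPM. The sum was compared in TPM alone, and its difference and spread may depend on that scale. For Actb, the largest part, NF-YAfl/fl varied less for its mean in CPM (4453.97 ± 809) than in TPM (2964.37 ± 1107.76). The sarcomeric pair made up 41.4%, 30.2% and 42.3% of the pool in NF-YAfl/fl and 0.191%, 0.282% and 0.472% in NF-YAcKO. Smooth muscle actins made up 13.1% ± 1.23 and 6.12% ± 0.678, nearly all of it Acta2. Cytoplasmic actins had a share of 49.0% ± 7.95 in NF-YAfl/fl and 93.6% ± 0.651 in NF-YAcKO, with Actb at 32.4% and 61.6% and Actg1 at 16.6% and 32.0%. None of these shares overlapped between the genotypes except that of Actg2, which was 0.184% ± 0.163 and 0.185% ± 0.0197 (exact permutation test, p = 1). For the other 5 genes the exact permutation test gave p = 0.1, the smallest possible. Shares add up to the whole, so that they are not independent of each other, and a larger share of Actb does not by itself mean more Actb. The summed sarcomeric actins stood to the cytoplasmic ones at a log2 ratio of -0.37 ± 0.49 in NF-YAfl/fl and -8.32 ± 0.65 in NF-YAcKO, a difference of -7.94 (exact permutation test, p = 0.1, adjusted p = 0.167).

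**Figure D3:**
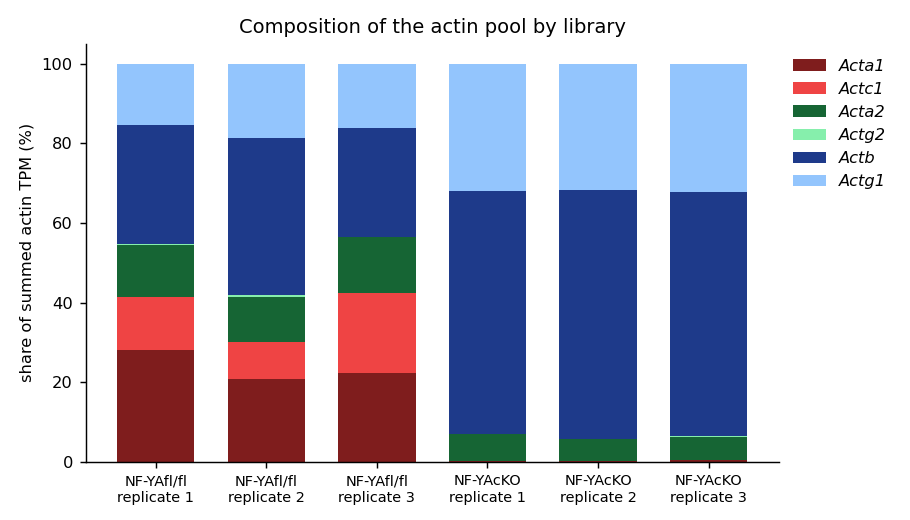
Share of each actin in the summed actin TPM (percent, stacked) for each library. Acta1 and Actc1 (red) take 30.2% to 42.3% in NF-YAfl/fl and at most 0.472% in NF-YAcKO, where Actb and Actg1 (blue) take 92.9% to 94.2%.

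Transcript levels were compared where a gene had several. Acta2 was quantified as a long transcript of 2572 nt and a short one of 1177 nt. The long form took 47.9%, 49.6% and 48.3% of the Acta2 TPM in NF-YAcKO and 43.9%, 41.9% and 39.6% in NF-YAfl/fl. It had a larger share in all 3 NF-YAcKO libraries (48.6% ± 0.92 against 41.8% ± 2.11, exact permutation test, p = 0.1), although both forms were lower in TPM. Actg1 had a minor transcript of 1953 nt at 6.40 ± 0.779 TPM in NF-YAcKO and 15.1 ± 3.01 TPM in NF-YAfl/fl, that is 0.27% ± 0.03 and 1.02% ± 0.0902 of the gene. The main Actg1 transcript of 1908 nt was higher in NF-YAcKO (2396.1 ± 238 against 1483.49 ± 398 TPM), so that the transcripts of this gene differed in opposite directions (exact permutation test, p = 0.1 for each). For Acta1 a minor transcript of 1571 nt took 1.03% ± 0.899 and 1.16% ± 0.234. These percentages are RSEM's estimates from reads that the transcripts of 1 gene mostly share.

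Promoters are shown because Acta1, Actc1 and Acta2 were called in the same direction while Actg1 was not, and because the NF-Y complex binds CCAAT. The 250 bases before the start were taken from RefSeq (GRCm38.p6), in which 4 of the 6 actins were matched. Capitals mark CArG boxes (CC, 6 bases that are each A or T, GG) and the same motif with 1 G or C among the 6 bases, which read alike on both strands.
Acta1 (chr8:123894776-123895025, minus strand): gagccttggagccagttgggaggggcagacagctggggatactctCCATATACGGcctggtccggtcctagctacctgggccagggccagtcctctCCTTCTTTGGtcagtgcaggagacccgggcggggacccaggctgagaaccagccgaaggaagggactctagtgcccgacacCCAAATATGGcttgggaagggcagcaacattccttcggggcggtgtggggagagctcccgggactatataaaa
Actc1 (chr2:114052876-114053125, minus strand): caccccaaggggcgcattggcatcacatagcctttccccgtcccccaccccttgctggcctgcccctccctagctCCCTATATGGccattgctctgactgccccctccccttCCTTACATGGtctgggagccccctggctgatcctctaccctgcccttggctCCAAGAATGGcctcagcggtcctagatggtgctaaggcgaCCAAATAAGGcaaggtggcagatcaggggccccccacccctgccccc
Acta2 (chr19:34255374-34255623, minus strand): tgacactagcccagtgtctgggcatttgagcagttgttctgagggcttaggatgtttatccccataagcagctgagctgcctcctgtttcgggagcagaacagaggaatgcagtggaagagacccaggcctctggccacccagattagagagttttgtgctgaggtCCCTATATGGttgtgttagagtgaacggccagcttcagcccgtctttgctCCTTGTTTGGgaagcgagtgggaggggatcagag
Actg1 (chr11:120348496-120348745, minus strand): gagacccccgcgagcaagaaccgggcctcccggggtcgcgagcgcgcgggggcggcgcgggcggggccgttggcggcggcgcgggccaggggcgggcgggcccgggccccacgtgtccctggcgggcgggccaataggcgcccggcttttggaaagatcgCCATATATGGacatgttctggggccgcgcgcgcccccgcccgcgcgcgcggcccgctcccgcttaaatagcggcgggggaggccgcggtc
A CArG box without a mismatch was found in Acta1 (-73 to -64, counted from the base before the start as -1), in Actc1 (-47 to -38) and in Actg1 (-90 to -81), and in 1.47% of the 32851 promoters of the table. The form with 1 mismatch was found in Acta1 at 2 places, in Actc1 at 3 and in Acta2 at 2, and in 7.24% of all promoters. CCAAT, searched on both strands, was found in Actc1 (-235 to -231, on the opposite strand) and in Actg1 (-120 to -116), and in 33.8% of all promoters. TATAAA was found in Acta1 alone (-7 to -2), and in 12.4% of all promoters. All positions count from the start in RefSeq, which can differ from other annotations. In GENCODE the Acta1 gene begins further downstream, at chr8:123894751. Actc1, called lower, and Actg1, higher but not called, each held a perfect CArG box and a CCAAT in this window. Acta2, also called lower, held neither, and Acta1 held no CCAAT. A link of these motifs to the levels was not tested. These letters are a description of the window only, and no binding was measured.

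SRF itself and its cofactors were next, as 1 of 6 lists of genes linked to actin. Srf was at 24.2 ± 2.45 TPM in NF-YAcKO and 21.3 ± 5.64 in NF-YAfl/fl (log2 fold change 0.30, edgeR FDR = 0.0429). The myocardin-related cofactors Mkl1 and Mkl2 had log2 fold changes of 0.13 (FDR = 0.506) and -0.32 (FDR = 0.0974), and Myocd, the smooth and cardiac muscle cofactor, was nearly absent at 0.0667 and 0.157 TPM. Of these 7 genes 0 were called in either direction by edgeR or DESeq2, and at an unadjusted p under 0.05 1 was higher and 3 were lower. Without NF-YAfl/fl replicate 3, 1 of the 7 (Myocd) was called lower. Of 23 cytoskeletal SRF target genes, 1 was called higher and 1 lower, with a median of -0.08. Of all tested genes, 4.65% were called higher and 7.67% lower. Tagln2, a transgelin, rose from 141 ± 74.5 to 319 ± 36.4 TPM (log2 fold change 1.34, edgeR FDR = 0.00742), and the tropomyosin gene Tpm2 fell from 639 ± 167 to 158 ± 14.7 TPM (-1.82, FDR = 0.000288). The most abundant genes of the list, Tpm1, Flna and Tpm4, had log2 fold changes of 0.11, 0.27 and 0.54 and were not called.

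Actin nucleators were called lower in 6 of 30 cases, and 0 were called higher, with a median of 0.07. The shares of all tested genes were 7.67% lower and 4.65% higher. The 6 were Lmod3 (log2 fold change -7.04, FDR = 5.06e-05), Lmod2 (-5.71), Fmnl1 (-3.60), Fhod3 (-2.69), Cobl (-2.64) and Daam2 (-2.36). Lmod2 and Lmod3 are the leiomodins that nucleate actin in the sarcomere, and Fhod3 is a sarcomeric formin. Lmod3 fell from 54.1 ± 11.1 to 0.383 ± 0.131 TPM. The Arp2/3 complex, which branches filaments at the cell edge, was measured by its abundant subunits Arpc1b, Actr3 and Arpc2, with log2 fold changes of 0.68, 0.55 and 0.31 and no call. For the higher direction, 9 nucleators had an unadjusted p under 0.05, and DESeq2 and limma called 0.

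Among 23 genes of filament turnover and monomer binding, 1 was called higher and 4 lower, with a median of 0.21. Calls were made for 4.65% of all tested genes on the higher side and 7.67% on the lower. The pointed-end cappers of muscle thin filaments Tmod1 (log2 fold change -3.77, edgeR FDR = 0.000353) and Tmod4 (-1.93, FDR = 0.00851), the coronin Coro6 (-2.41, FDR = 0.00267) and the muscle cyclase-associated protein Cap2 (FDR = 0.000548) fell. Coro1c, a coronin of the cell cortex, rose (1.07, FDR = 0.00245). Tmod1 went from 15.7 ± 2.69 to 1.18 ± 0.185 TPM and Cap2 from 48.4 ± 4.58 to 11.2 ± 1.35 TPM. The abundant monomer binders Tmsb4x and Tmsb10 and the severing factor Cfl1 had log2 fold changes of 0.49, -0.28 and 0.79 and were not called. Leaving out 1 of 4 libraries (any NF-YAcKO library or NF-YAfl/fl replicate 1) lowered the 5 calls of this list to 2 or 3.

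Genes for folding and processing of new actin had the highest median of the lists, 0.57, although 0 of 16 measured were called in either direction. Without the fold threshold, 10 of 16 had an FDR under 0.01 and a higher level, against 10.3% of all tested genes. They were the 8 subunits of the CCT chaperonin, which folds actin and tubulin, with log2 fold changes from 0.55 (Cct3 and Cct4) to 0.73 (Cct6a), and the prefoldin subunits Pfdn1 (0.66) and Vbp1 (0.46). That count of 10 was 0 without any 1 of the NF-YAcKO libraries, 1 without NF-YAfl/fl replicate 1 and 6 without NF-YAfl/fl replicate 2, and 0 with limma on TPM. Cct2, the most abundant, was at 366 ± 23.9 TPM in NF-YAcKO and 245 ± 23.3 TPM in NF-YAfl/fl (edgeR FDR = 0.00513). Cct5 and Cct3, next in abundance, had log2 fold changes of 0.60 and 0.55. Setd3, the actin histidine methyltransferase, was at 43.4 ± 2.73 and 49.1 ± 6.7 TPM (FDR = 0.432). At an unadjusted p under 0.05, 12 genes were higher and 1 was lower, and DESeq2 and limma called 0. The share of all tested genes at that p was not determined. Of 18 actin-related and actin-like genes, 11 were tested and 0 called by edgeR, DESeq2 or limma, with 5 higher and 1 lower at an unadjusted p under 0.05 and a median of 0.22. The most abundant were Actr1a, Actr1b and Actl6a, with log2 fold changes of 0.12, 0.26 and 0.90. Actl6a, a subunit of chromatin remodelling complexes, passed the FDR but not the fold (edgeR FDR = 0.00185). Actbl2, a beta-actin-like gene, had 1 count in 1 library and 0 in the others.

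**Figure D4:**
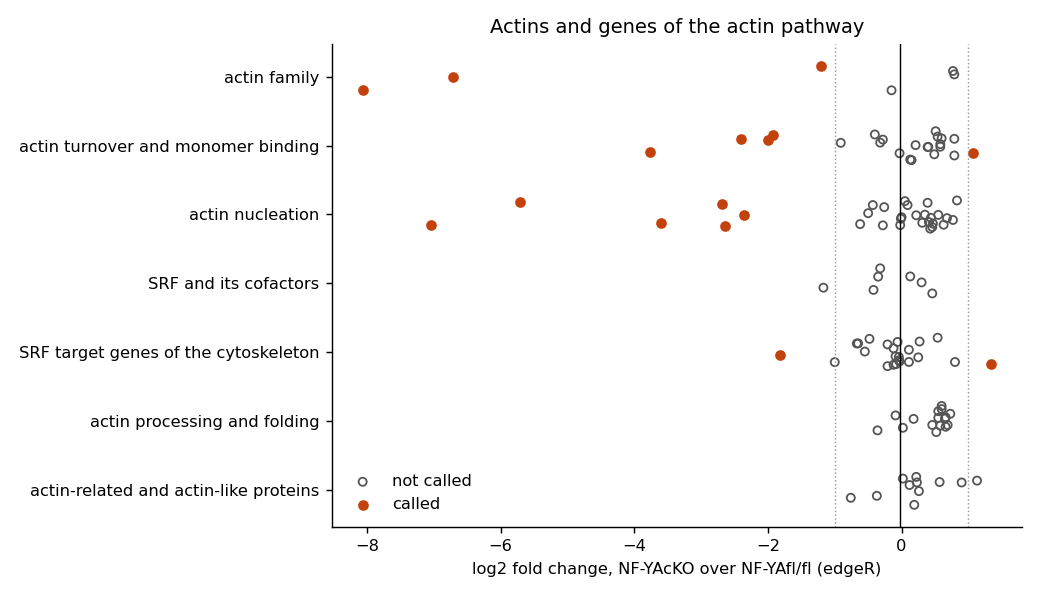
Log2 fold change (NF-YAcKO over NF-YAfl/fl) of the actins and of the tested genes of the 6 lists, 1 point per gene. Filled points were called, dotted lines mark the fold thresholds and the solid line the median of all tested genes (-0.02). The called genes of the nucleation list all lie at -2.36 or lower, and 14 of the 16 folding and processing genes lie above 0 with 0 called.

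The genes whose pattern was most like that of each actin were sought among those with a mean of at least 10 TPM, by Pearson's r of log2(TPM + 1). The 6 libraries form 2 genotypes, so that high values are common, and r is a description only. For Acta1 they were Arpp21, Neurl1a and Neb (r = 0.9996 to 0.9999), of which Neb encodes nebulin of the thin filament and went from 197 TPM in NF-YAfl/fl to 3.73 in NF-YAcKO. For Actc1 they were Shisa2, Sntb1 and Klhl31, the last a muscle Kelch protein. For Acta2 they were Stim1, Dusp10 and Cd164, for Actb Smchd1, Prim2 and Rgs10, and for Actg1 Polr2b, Mta2 and Arl6ip1. The number of genes with r above 0.99 was 133 for Acta1, 120 for Actc1, 34 for Acta2, 166 for Actb and 153 for Actg1. For Actg2 it was 3 (Ebp, Dgkz and Rnase4). Among the actins r was highest for Acta1 with Actc1 (0.995) and for Actb with Actg1 (0.982), while Actg2 had -0.035 with Acta2.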

How the data were processed

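RNA-seq was performed by the authors on cultured SCs of NF-YAcKO and NF-YAfl/fl mice, with 3 stranded total RNA libraries for each genotype (500 ng of RNA, paired reads of 75 nt). Groups and replicate numbers were taken from the sample labels. The authors mapped the reads with Bowtie2 to transcripts of mm10 and ran RSEM 1.3.1 on the result. The version of Bowtie2 is not given in the sources used here. The deposited expected counts are neither normalized nor filtered, and reads that fit several transcripts are split by RSEM. The deposited TPM values are scaled by transcript length and keep no depth. The deposited percent values give each transcript's part of its gene's TPM. FPKM values were not used.

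Expected counts were rounded. A gene was tested if its count was over 10 in 2 or more libraries (17348 of 35976). The test was edgeR 4.0.16 (glmQLFit and glmQLFTest after TMM, genotype alone in the design, Benjamini-Hochberg adjusted) under R 4.3.3. The thresholds were those of the study's Methods. The filter on counts can pass a gene through 1 genotype alone. CPM are relative to TMM-normalized library size. Shares, ratios and transcripts were compared with two-sided exact permutation tests (scipy 1.17.1), for which 0.1 is the smallest p. P-values measure the spread between libraries, and the labels do not say that each library is a separate culture or mouse. No pair of replicates agreed within sampling noise. On simulated counts of 16995 genes, 99 of 99 genes changed by 2 and 101 of 101 changed by 3 on the log2 scale were called, and 3 of 16795 unchanged genes. The simulation gave all genes the same spread, held no unlike library and changed only well-counted genes. It therefore checks that the fit runs properly, and does not show how well smaller changes are called in these libraries. Library totals of at least 26936230 counts leave the spread between libraries as the main limit.

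The actins and the gene lists were chosen with earlier results of these data known. Genes named besides the actins were Srf, its myocardin family cofactors, up to 4 called genes of each list with the largest change and no overlap, the 3 most abundant of each list, and the 3 genes most like each actin. Cobl, Daam2, Coro1c, Setd3, Cct4, Cct6a, Pfdn1, Vbp1, Actbl2, Tagln and the single markers were named after their values were seen. Sequences came from GENCODE vM21 and RefSeq promoters. Other settings tried were filterByExpr, DESeq2 1.42.0, edgeR with its size factors, no filter, counts without rounding, limma 3.58.1 on log2(TPM + 1) and log2(TPM + 0.1), an FDR under 0.05, the replicate number as a block, expected counts in place of TPM for shares and ratios, ratios of TPM + 1, a sum with Actbl2, and leaving out each library. Plots were drawn with matplotlib 3.10.9.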

Additional observations from a re-analysis of the deposited data

How the results depend on the processing

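Acta1 and Actc1 kept direction and call in all 14 alternatives, with log2 fold changes of -7.17 to -6.49 and -8.37 to -7.73. Acta2 kept its direction, from -1.33 to -1.15 when single libraries were left out, and lost its call without NF-YAcKO replicate 2 (-1.16) or 3 (-1.19). Actb (0.66 to 0.91, FDR 5.21e-05 to 0.132) and Actg1 (0.71 to 0.84, FDR 7.18e-12 to 0.0645) stayed higher and uncalled in all of them. Actg2 changed sign to 0.42 and 0.66 with limma on log2(TPM + 1) and log2(TPM + 0.1), and ranged from -0.71 to 0.57 when single libraries were left out. The cause was not tested.

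With expected counts in place of TPM, the share of Acta1 differed by -19.9 and that of Actg1 by 13.4 percentage points, against -23.5 and 15.4 with TPM. The share of Actg2 differed by -0.0848 to 0.077 percentage points when single libraries were left out. Without NF-YAfl/fl replicate 3 the difference in the log2 ratio of Acta2 to Actg2 was -0.55, against -2.06 with it. The number of genes called was 2137, was 935 (231 higher, 704 lower, against 806 and 1331) with limma on log2(TPM + 1), with 361 higher on log2(TPM + 0.1), and 2025 lower at an FDR under 0.05, and was 700 to 2538 when single libraries were left out. Leaving out a library also leaves fewer samples. The alternatives for the long Acta2 transcript (5.69 to 7.80 percentage points, always larger in NF-YAcKO) and for the FDR of folding genes were chosen after seeing the data.

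The replicate numbers come from the labels alone, and libraries with the same number deviated together at r = 0.165, -0.069 and 0.053, so that they were not taken as pairs. With the replicate number as a block Actg2 was at 0.51, the FDR of Actg1 rose to 0.0166, the calls of the other 5 actins were the same as without it, and 0 of 16 folding and processing genes, in place of 10, had an FDR under 0.01.

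The depth would detect an actin at 3 counts, far below every value given. With 3 libraries a genotype, the spread between libraries and the division of reads among like sequences limit the comparisons, and sex-linked expression and macrophage markers go with genotype.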
